A study of Mus musculus with 41 samples.

Results

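The genes described are 9 steroid hormone receptors, targets and enzymes, out of 13283 genes with a single listed gene symbol in the deposited array table. They are the glucocorticoid receptor gene Nr3c1 and the oestrogen receptor gene Esr1, the hormone-responsive genes Fkbp5, Klf9, Tsc22d3, Sgk1 and Zbtb16, and the steroid dehydrogenase genes Hsd17b11 and Hsd11b1. They were chosen by name, and each is represented by its probe of highest mean. RNA came from the thymus of male C57Bl/6 mice, from which epithelial cells (TEC, CD45-EpCAM+) and the other stromal cells (nonTEC, CD45-EpCAM-) were sorted and put on 41 Illumina arrays in 14 groups. In TEC, 3 arrays each came from castrated and from sham-operated mice at day 4, day 7 and day 20, from unoperated middle-aged mice and from unoperated young mice. In nonTEC the groups were the same without day 20, with 3 arrays each apart from 2 for sham-operated mice at day 7. Operated and middle-aged mice were 9 to 12 months old and young mice 5 to 6 weeks old. Surgical castration removes the testes, the main source of androgen, and sham-operated mice of the same day were its control. The labels do not say whether the arrays of a group came from separate or pooled animals, so p-values measure the spread between arrays.

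Steroid receptors are transcription factors that bind a hormone and then DNA. Glucocorticoids act through the receptor encoded by Nr3c1, which recognises a DNA element that is a palindrome of AGAACA and TGTTCT. Fkbp5, Klf9, Tsc22d3, Sgk1 and Zbtb16 are known as targets of glucocorticoids, and some of them also respond to androgens. The thymus is a classical target of both hormones: glucocorticoids kill immature thymocytes, and castration lets the aged thymus regrow for a time. Hsd11b1 regenerates active glucocorticoid inside cells, and Hsd17b11 is a short-chain dehydrogenase that acts on 17-beta-hydroxysteroids and sits on lipid droplets.

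The promoters are shown because this element can be looked for in them directly. RefSeq promoter sequences (build GRCm38.p6, 250 bases before to 50 bases after a start) were matched for 7 of the 9 genes, with 15 starts. The palindrome, AGAACA and TGTTCT with any 3 bases between them, occurred on either strand in 3 of 32851 promoters of this length (0.00913%), and 1 of the 3 was a start of Sgk1. Its single arm TGTTCT, which is part of the palindrome, occurred in 6233 promoters (19%). In the Sgk1 sequence below, capitals mark the palindrome, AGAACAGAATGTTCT at chr10:21993701-21993715, whose first base lies 189 bases before the start, and a separate arm 242 bases before it. The promoters of Fkbp5 and Klf9, whose castration differences held under most alternatives, are given for comparison and hold neither motif in this window, hence no capitals.
Sgk1, chr10:21993640-21993939, plus strand: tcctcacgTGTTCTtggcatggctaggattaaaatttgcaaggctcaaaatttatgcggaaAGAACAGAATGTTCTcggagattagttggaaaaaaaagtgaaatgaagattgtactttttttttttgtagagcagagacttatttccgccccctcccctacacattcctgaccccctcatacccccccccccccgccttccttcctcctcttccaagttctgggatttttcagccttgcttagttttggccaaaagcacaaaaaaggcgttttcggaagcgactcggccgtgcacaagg
Fkbp5, chr17:28486100-28486399, minus strand: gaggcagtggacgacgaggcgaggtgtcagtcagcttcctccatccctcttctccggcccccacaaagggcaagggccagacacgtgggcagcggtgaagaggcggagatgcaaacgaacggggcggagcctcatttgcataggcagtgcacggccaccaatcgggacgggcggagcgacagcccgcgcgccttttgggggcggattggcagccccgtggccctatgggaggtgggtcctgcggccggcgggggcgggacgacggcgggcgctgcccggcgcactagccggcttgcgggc
Klf9, chr19:23140976-23141275, plus strand: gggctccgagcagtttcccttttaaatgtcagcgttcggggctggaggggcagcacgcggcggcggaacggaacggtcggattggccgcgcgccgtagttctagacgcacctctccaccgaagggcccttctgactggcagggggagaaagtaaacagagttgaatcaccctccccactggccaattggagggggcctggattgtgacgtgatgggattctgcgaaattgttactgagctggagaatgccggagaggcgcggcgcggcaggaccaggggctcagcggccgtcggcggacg
The other 5 starts of Sgk1 held no palindrome, and 2 of them held a single arm, as did 1 of the 3 starts of Tsc22d3. No start of Hsd11b1, Hsd17b11 or Esr1 held either motif, and no start of any of these genes held the oestrogen receptor palindrome, GGTCA and TGACC with any 3 bases between them, which 23 promoters held (0.07%). A match is a match of letters and does not show that a receptor binds there.

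Of these genes 6 could be tested in TEC (Fkbp5, Klf9, Tsc22d3, Sgk1, Hsd17b11 and Hsd11b1) and 7 in nonTEC, where Esr1 joined them. Testing was limited to genes with a group mean above 6.73, the median of all deposited log2 intensities, and a gene is said to have risen or fallen where its adjusted p (limma, Benjamini-Hochberg over all genes tested) was under 0.05. The values are on the log2 scale, so a difference of 1 is a doubling. TEC arrays had 10.50 to 11.39 as the mean log2 level of 9 measured epithelial markers, and nonTEC arrays 6.07 to 8.45 over 8 of them. Fibroblast markers averaged 6.96 to 9.12 on TEC arrays and 11.81 to 12.73 on nonTEC arrays. Arrays of the same group correlated at 0.798 or more, with the lowest value in middle-aged TEC. Middle-aged array 3, castrated day 4 arrays 2 and 3 and sham day 4 array 3 of TEC stood apart from their groups. Only some of the results that use these arrays are given both with and without them. In bulk RNA, fewer cells of a type and less RNA per cell cannot be told apart, and the number of arrays limits the precision of every difference.

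Few of these genes fell after castration. In TEC, Fkbp5 fell at day 20 and Hsd17b11 at day 4, while in nonTEC Klf9 fell at day 7. That is 1 of 6 genes at day 4, 0 of 6 at day 7 and 1 of 6 at day 20 in TEC, where 3.62%, 0.171% and 22.5% of all genes tested passed in either direction and 1.29% (day 4) and 9.4% (day 20) fell. At day 7, 2 of the 6 (Klf9 and Hsd17b11) had an unadjusted limma p under 0.05, as had 13.2% of all genes. In nonTEC it is 0 of 7 at day 4, with 2 of the 7 (Fkbp5 and Tsc22d3) under an unadjusted limma p of 0.05 (22.3% of all genes), and 1 of 7 at day 7, where 6.31% and 0.438% of all genes passed and 0.386% fell at day 7. With age, Fkbp5 rose in TEC (1 of 6, against 18.8% of all genes tested, 11.9% upwards) and Klf9, Tsc22d3 and Hsd17b11 rose in nonTEC (3 of 7, against 32.4%, 16.8% upwards). The shares in TEC at day 20 and with age were near those of all genes. Those in TEC at day 4, in nonTEC at day 7 and in nonTEC with age were above them, on 1, 1 and 3 genes.

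**Figure D1:**
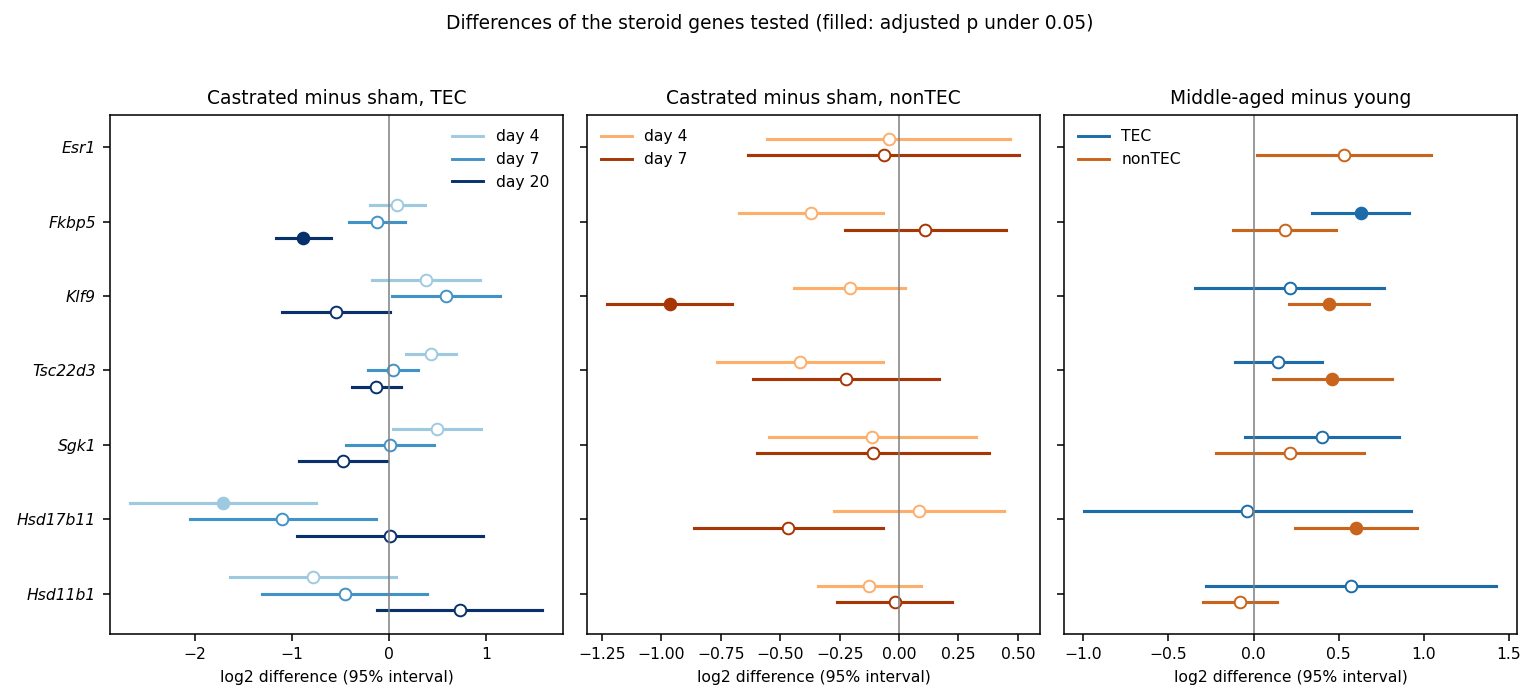
Log2 difference with its 95% interval for each gene tested, castrated minus sham in TEC (left, days 4, 7 and 20), castrated minus sham in nonTEC (middle, days 4 and 7) and middle-aged minus young (right), with filled points for adjusted p under 0.05 and a separate horizontal scale in each panel. Fkbp5 is lowest in TEC at day 20 (-0.89) and Klf9 in nonTEC at day 7 (-0.97).

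Of the receptor genes, Nr3c1 lay below the filter where it was measured, and Esr1 lay below it in TEC and near it in nonTEC. Nr3c1 had no value for TEC in the table used here, and its 1 probe in nonTEC read 4.42 to 5.68 on the 17 arrays, below the filter in all 6 groups, whose means lay between 4.75 in castrated mice at day 4 and 5.10 in middle-aged mice. Nr3c2, the mineralocorticoid receptor gene, is not analysed here. A dim probe does not show that the receptor is not expressed.

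Esr1 lay near the filter in nonTEC and was tested there because of its middle-aged group, the high group of the ageing comparison. Its group means there were 6.98 in middle-aged mice, 6.73 and 6.68 in sham-operated mice at days 4 and 7, 6.69 and 6.61 in castrated mice at the same days, and 6.44 in young mice. The 3 middle-aged arrays read 7.47, 7.06 and 6.39, against 6.39, 6.50 and 6.43 in young mice. The groups overlapped through middle-aged array 3, and the difference of 0.53 ± 0.24 (SE) did not pass (adjusted p = 0.101, limma). Castrated and sham-operated nonTEC differed by -0.04 at day 4 and by -0.06 at day 7.

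In TEC all group means of Esr1 lay between 4.53 and 5.46, below the filter. Castrated TEC at day 4 read 5.07, 5.70 and 5.61, against 4.88, 4.73 and 4.43 in sham-operated TEC. At day 7 castrated TEC read 5.23, 5.17 and 5.34, against 4.51, 4.93 and 4.39 in sham-operated TEC. All castrated arrays lay above all sham arrays of their day at days 4 and 7, whereas at day 20 castrated TEC (4.54) lay below sham TEC (4.98) on average. With no filter on dim probes the day 4 difference of 0.78 ± 0.19 passed (adjusted p = 0.0358, limma). In the fit over both fractions, where Esr1 passed the filter only through nonTEC, the castration difference over days 4 and 7 was 0.76 ± 0.23 higher in TEC than in nonTEC (adjusted p = 0.0392, limma). This call was kept in 9 of 23 fits that left out an array and had adjusted p = 0.263 without the 4 arrays that stood apart (difference 0.51), and no direction in TEC is drawn from probes this dim.

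Fkbp5, which encodes a co-chaperone that lowers the affinity of the glucocorticoid receptor for its hormone and is itself induced by it, was higher with age and lower 20 days after castration in TEC. Middle-aged TEC read 8.84, 9.06 and 8.99, against 8.46, 8.27 and 8.27 in young TEC. Every middle-aged array lay above every young array, and the means were 8.96 ± 0.11 and 8.33 ± 0.11 (SD, n = 3 each). The difference was 0.63 ± 0.14 (SE, 1.55-fold, adjusted p = 0.00429, limma), and it passed with each of the 6 arrays left out (0.58 to 0.69). It was lost in a fit of these 6 arrays alone (adjusted p = 0.158), and was 0.39 (adjusted p = 0.0137) with the sham groups in place of unoperated middle-aged mice.

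At day 20 castrated TEC read 8.04, 8.09 and 8.14 for Fkbp5, against 9.02, 9.00 and 8.93 in sham-operated TEC. The groups lay far apart, with means of 8.09 ± 0.05 and 8.98 ± 0.05 (SD, n = 3 each). Fkbp5 fell by 0.89 ± 0.14 (1.85-fold lower, adjusted p = 0.000153, limma), and this passed under all 15 alternatives and with each of 6 arrays left out (highest adjusted p 0.00144). At day 4 castrated TEC read 8.40, 8.80 and 8.96, against 8.61, 8.68 and 8.63 in sham TEC, and at day 7 8.36, 8.28 and 8.66 against 8.49, 8.57 and 8.62. Both of these overlapped, with differences of 0.08 ± 0.14 at day 4 and -0.13 ± 0.14 at day 7.

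The castration difference of Fkbp5 was unequal over the 3 days (moderated F test in limma, adjusted p = 0.00387), the 1 gene of 6 to pass that test, which 17% of all genes passed. All 6 had an unadjusted limma p under 0.05, as had 31.5% of all genes, and the adjusted p of the other 5 ran from 0.0643 to 0.152. Averaged over the 3 days it was -0.31 ± 0.08 (adjusted p = 0.0186). Together with Hsd17b11, this made 2 of 6 genes that fell on average over the days, against 10.8% of all genes in either direction and 4.95% downwards. The sham group at day 20 (8.98) was as high as the unoperated middle-aged group (8.96), and the sham groups at day 4 (8.64) and day 7 (8.56) differed from it by -0.32 ± 0.14 (adjusted p = 0.2) and -0.40 ± 0.14 (adjusted p = 0.148). In order of level, sham day 20 and middle-aged TEC stood together at the top, castrated day 4, sham day 4, sham day 7, castrated day 7 and young TEC followed in steps each no larger than the pooled SD of 0.14 after the first, and castrated day 20 lay 0.24 below young TEC. Fibroblast markers averaged 7.42 to 7.44 in castrated TEC at day 20 and 6.96 to 7.04 in sham TEC. With that mean as a covariate, an alternative chosen after the data were seen, the Fkbp5 difference was -0.93 (adjusted p = 0.000133). Thymocyte markers averaged 6.63 to 6.84 in castrated and 5.90 to 6.34 in sham TEC at day 20. The sort was for CD45- cells, yet 5 of 7 leukocyte markers were measured and averaged 10.50 to 10.73 in castrated and 9.32 to 9.63 in sham TEC at day 20, and 9.57 to 9.80 in middle-aged and 10.55 to 10.84 in young TEC. For 5 of 8 myeloid markers the ranges were 9.15 to 9.33 in castrated and 7.94 to 8.13 in sham TEC at day 20, and 7.13 to 8.09 in middle-aged and 8.63 to 8.77 in young TEC. Leukocyte and myeloid markers thus ran opposite to Fkbp5 in both comparisons, and the part of these markers was not tested.

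In nonTEC no castration or ageing difference of Fkbp5 passed. Castrated nonTEC at day 4 read 9.38, 9.18 and 8.87, against 9.36, 9.65 and 9.54 in sham nonTEC. The lower 2 castrated arrays set the difference of -0.37 ± 0.14, which did not pass (adjusted p = 0.132), and at day 7 it was 0.11 ± 0.16. Middle-aged nonTEC (9.14 ± 0.17) and young nonTEC (8.96 ± 0.07, SD, n = 3 each) differed by 0.18 ± 0.14 (adjusted p = 0.352), and the sham groups in place of unoperated middle-aged mice gave 0.42 (adjusted p = 0.022), which passed. The ageing difference was not shown to differ between the fractions (0.45 ± 0.19, adjusted p = 0.127). Of the 7 genes 0 passed that test, against 11.2% of all genes, and 1 had an unadjusted limma p under 0.05, against 26.5%.

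Klf9, a Krüppel-like transcription factor induced by glucocorticoids and thyroid hormone, fell after castration in nonTEC. Castrated nonTEC at day 7 read 11.36, 11.27 and 11.12, against 12.17 and 12.26 in the 2 sham arrays. These castrated arrays were lower than all other nonTEC arrays of the study. The means were 11.25 ± 0.12 (SD, n = 3) in castrated and 12.21 ± 0.06 (SD, n = 2) in sham nonTEC, and Klf9 fell by 0.97 ± 0.13 (1.95-fold lower, adjusted p = 0.00076, limma).

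At day 4 castrated nonTEC read 11.88, 12.07 and 12.07 for Klf9, against 12.18, 12.11 and 12.35 in sham nonTEC. The groups just failed to overlap, and the difference of -0.21 ± 0.11 did not pass (adjusted p = 0.29). Over both days Klf9 fell by 0.59 ± 0.08 (adjusted p = 0.000729), 1 of 7 genes, against 6.54% of all genes, 3.81% downwards. The day 7 call was lost without sham array 2 (-0.92, adjusted p = 0.0846), which leaves a single sham array assumed to vary like the other groups, and in the fit of all 41 arrays (adjusted p = 0.0613).

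Thymocyte, epithelial and leukocyte markers moved in the opposite sense to Klf9 in nonTEC. Over 9 of 13 measured thymocyte markers, castrated nonTEC averaged 7.46 to 9.18 at day 4 and 7.73 to 8.07 at day 7, against 6.62 to 6.97 and 7.28 to 7.35 in sham nonTEC. Middle-aged nonTEC averaged 6.68 to 7.57, against 8.03 to 9.02 in young nonTEC. With this mean as a covariate, the day 7 difference of Klf9 was -0.90 (adjusted p = 0.00374) and that over both days -0.47 (adjusted p = 0.248). Epithelial markers (8 measured) averaged 6.99 to 7.56 at day 4 and 7.23 to 7.33 at day 7 in castrated nonTEC. In sham nonTEC they averaged 6.07 to 6.31 and 6.23 to 6.72, in middle-aged 6.14 to 7.25 and in young 7.45 to 8.45. Leukocyte markers (7 measured) averaged 7.08 to 8.44 and 7.34 to 7.64 in castrated nonTEC, against 6.38 to 6.71 and 7.00 to 7.13 in sham. In middle-aged nonTEC they averaged 6.65 to 7.42 and in young 8.73 to 8.96. Fibroblast markers averaged 11.86 to 11.94 in castrated nonTEC at day 4, against 12.04 to 12.25 in sham, and so were lower there, like Klf9. At day 7 they averaged 12.15 to 12.26 in castrated and 11.94 to 11.98 in sham nonTEC, and with age 11.81 to 12.27 in middle-aged and 12.49 to 12.73 in young nonTEC. In these comparisons they ran opposite to Klf9. The part of the epithelial, leukocyte and fibroblast markers was not tested.

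With age Klf9 rose in nonTEC. Middle-aged nonTEC read 12.52, 12.38 and 12.35, against 11.89, 12.09 and 11.94 in young nonTEC. All middle-aged arrays were higher, and the difference was 0.45 ± 0.11 (1.36-fold, adjusted p = 0.00617). It was 0.30 (adjusted p = 0.196) with the thymocyte mean as a covariate and 0.24 (adjusted p = 0.0785) with the sham groups in place of unoperated middle-aged mice, and the call was also lost in fits of all 41 arrays (adjusted p = 0.134) or of only the 6 compared (adjusted p = 0.0509). In order, middle-aged nonTEC led, both sham groups (12.21 each) came next, castrated day 4 (12.01) and young (11.97) were within 0.03 of each other, and castrated day 7 lay 0.72 below them, with a pooled SD of 0.11.

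In TEC no castration difference of Klf9 passed, and their sign changed with the day. At day 4 castrated TEC read 10.24, 10.42 and 10.74, against 10.28, 10.09 and 9.89 in sham TEC, and at day 7 10.40, 10.14 and 10.24 against 10.15, 9.68 and 9.19. The groups overlapped on both days, and the differences of 0.38 ± 0.27 (adjusted p = 0.374) and 0.59 ± 0.27 (adjusted p = 0.359) did not pass. At day 20 castrated TEC read 11.03, 10.91 and 10.61, against 11.43, 11.41 and 11.34 in sham TEC, all lower, with a difference of -0.55 ± 0.27 that did not pass either (adjusted p = 0.15).

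The test of the difference itself set the fractions apart for Klf9. Over days 4 and 7 its castration difference was 1.07 ± 0.22 higher in TEC than in nonTEC (adjusted p = 0.00572, limma). This difference passed under all 11 alternatives run and with each of 23 arrays left out. Those alternatives included no marker mean as a covariate. With the thymocyte mean as a covariate, the nonTEC difference of Klf9 over both days was -0.47 (adjusted p = 0.248, limma). Of the 6 genes tested in each fraction, 2 (Klf9 and Tsc22d3) had a castration difference more positive in TEC, against 3.68% of all genes in that direction and 6.04% in either.

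Klf9 was also higher on the day 20 arrays of TEC than on the others. Sham TEC at day 20 averaged 11.40 ± 0.05 and unoperated middle-aged TEC 10.10 ± 0.64 (SD, n = 3 each), where the middle-aged arrays read 10.53, 9.37 and 10.39. The difference was 1.30 ± 0.27 (adjusted p = 0.000677, limma). Over castrated and sham arrays together, day 20 averaged 11.12 (6 arrays) and days 4 and 7 averaged 10.12 (12 arrays, SE of the difference 0.16, adjusted p = 2.59e-05). In these comparisons 2 of 6 and 3 of 6 genes passed, against 48.9% and 64.2% of all genes. The labels do not say which arrays were handled together, so day and any handling particular to the day 20 arrays cannot be told apart.

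Tsc22d3 encodes GILZ, a leucine zipper protein that carries part of the anti-inflammatory action of glucocorticoids. By its brightest probe it was high and nearly level in both fractions, with group means of 10.82 to 11.35 in TEC and 11.28 to 11.81 in nonTEC. Sham TEC at day 4 was the lowest group, at 11.02, 10.79 and 10.65, against 11.39, 11.17 and 11.49 in unoperated middle-aged TEC. All 3 sham arrays lay below the middle-aged ones, and the difference was -0.53 ± 0.12 (adjusted p = 0.0333, limma), 1 of 6 genes to pass, against 2.37% of all genes, 1.46% downwards. The call was lost without sham array 2 or 3 (highest adjusted p 0.0922) and without the 4 arrays that stood apart (-0.38, adjusted p = 0.0585). Castrated TEC at day 4 read 11.12, 11.52 and 11.10, above all sham arrays of that day, and that difference of 0.43 ± 0.12 narrowly missed the threshold (adjusted p = 0.0551).

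These TEC results of Tsc22d3 depended on the probe. A second probe, of mean level 6.67 in TEC, differed between castrated and sham TEC by -1.90 at day 4 and by -0.998 at day 7, opposite to the brightest probe. With the mean of the 3 probes the day 4 castration difference was -0.65 (adjusted p = 0.0941) and the day 4 sham difference 0.13 (adjusted p = 0.792). The castration difference over days 4 and 7 was 0.55 ± 0.15 higher in TEC than in nonTEC by the brightest probe (adjusted p = 0.0265), and it turned to -0.28 (adjusted p = 0.423) with the mean of the probes. Without the 4 arrays that stood apart it was 0.45 (adjusted p = 0.126), and it was also lost without castrated TEC array 2 of day 4, sham nonTEC array 2 of day 4 or sham nonTEC array 2 of day 7 (highest adjusted p 0.094).

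In nonTEC Tsc22d3 rose with age on a thin margin. Middle-aged nonTEC read 11.64, 11.64 and 11.93, against 11.21, 11.30 and 11.32 in young nonTEC. All middle-aged arrays were higher, with a difference of 0.46 ± 0.17 (1.38-fold, adjusted p = 0.0408, limma). The call was lost in 5 of the 6 fits that left out an array, all but that without middle-aged array 2 (0.37 to 0.51, highest adjusted p 0.123). Quantile normalization, array weights, a fit with no trend and a fit of only the arrays compared lost it too (highest adjusted p 0.0597, limma). The 2 dimmer probes were also higher in middle-aged nonTEC, by 1.08 and 0.59, and the mean of the 3 probes passed (0.71, adjusted p = 0.00519). The castration difference in nonTEC was -0.42 ± 0.17 at day 4 (adjusted p = 0.14) and -0.22 ± 0.19 at day 7 (adjusted p = 0.772).

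Sgk1 encodes a kinase that raises sodium transport and cell survival downstream of glucocorticoids and mineralocorticoids. It lay well above the filter in both fractions and passed no castration or ageing test. Castrated TEC at day 4 read 12.46, 12.82 and 13.04, against 12.60, 12.53 and 11.71 in sham TEC. Sham array 3 was the low one, and the difference of 0.49 ± 0.22 did not pass (adjusted p = 0.161). At day 20 castrated TEC read 11.18, 11.67 and 11.48, against 11.88, 11.98 and 11.90 in sham TEC. All castrated arrays were lower, yet the difference of -0.47 ± 0.22 did not pass (adjusted p = 0.127). Over castrated and sham arrays together, day 20 differed from days 4 and 7 by -0.88 ± 0.13 (adjusted p = 1.1e-05). In nonTEC the 6 group means spanned 0.36, little more than the pooled SD of 0.29, and no neighbours in their order differed beyond it.

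Zbtb16, which encodes the zinc finger protein PLZF and is known for a strong glucocorticoid response in human cells, stayed below the filter on every array and was not tested. Its group means were 4.59 to 5.22 in TEC and 4.74 to 5.83 in nonTEC. Castrated nonTEC at day 4 read 4.80, 5.09 and 5.58, against 5.89, 5.72 and 5.87 in sham nonTEC. Middle-aged nonTEC read 5.54, 5.35 and 5.44, against 4.70, 4.78 and 4.74 in young nonTEC. Both pairs of groups were free of overlap, with untested differences of -0.68 and 0.70 at levels where a probe carries little signal.

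Of the 6 genes tested in each fraction, Hsd11b1 differed most between them. Unoperated TEC averaged 9.61 over middle-aged and young mice and unoperated nonTEC 14.41. The difference of -4.81 ± 0.23 (adjusted p = 1.19e-18, limma) carries the reservation that each fraction appears to have been normalized on its own. In the same test 5 of the 6 genes were lower in TEC, against 47.4% of all genes in that direction and 76.7% in either, with differences of -2.79 for Hsd17b11, -2.21 for Klf9, -0.40 for Fkbp5 and -0.23 for Tsc22d3. Esr1, which passed the filter through nonTEC alone and so had to be lower in TEC, is not counted. Fkbp5 lost its call with quantile normalization over all arrays (-0.13, adjusted p = 0.199) or centring on each array's median (-0.18, adjusted p = 0.0701). Sgk1 did not pass (-0.27 ± 0.16, adjusted p = 0.123). The call of Tsc22d3 (adjusted p = 0.0455) was lost in 7 of 12 fits that left out an array and its sign turned with quantile normalization (0.13). Hsd11b2, the enzyme that inactivates glucocorticoids, averaged 4.42 to 5.14 over the groups of both fractions, below the filter.

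In nonTEC Hsd11b1 read 13.86 to 14.50 on every array, close to the highest value in the table (14.89), so that a rise there, and the distance to TEC, could be compressed. The 3 brightest of its 4 probes differed by -0.08 to 0.01 between middle-aged and young nonTEC, and no comparison of the brightest passed. The fourth, of mean level 7.76, differed by -1.92 with age, and through it the mean of the 4 probes fell (-0.52, adjusted p = 0.00364). In TEC its level went with fibroblast marker level. Sham array 3 at day 4 read 11.71 for Hsd11b1 and 9.12 for the mean of 8 fibroblast markers, against 9.63 and 9.77 for Hsd11b1 and 7.30 and 7.40 for the markers on the other 2 arrays. Castrated array 3 at day 4 (10.50, markers 8.43) and middle-aged array 3 (10.36, markers 8.05) were the next highest for both. Sham array 3 at day 4 was also high in thymocyte markers (9.36, against 6.67 and 6.72) and endothelial markers (7.73, against 5.61 and 5.36). On castrated array 3 at day 4 thymocyte markers were high (7.77, against 6.97 and 7.33) and endothelial markers low (5.90, against 7.02 and 6.39). Only the fibroblast mean served as a covariate in TEC, and the part of the other markers was not tested.

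After castration, Hsd11b1 in TEC read 9.17, 9.07 and 10.50 at day 4, against 9.63, 9.77 and 11.71 in sham TEC, 8.84, 9.05 and 9.42 at day 7, against 9.68, 9.48 and 9.52, and 8.91, 8.75 and 8.89 at day 20, against 8.07, 8.20 and 8.11. The castrated arrays were all lower at day 7 and all higher at day 20, and fibroblast markers were higher in castrated TEC at day 20 as well. None of the differences passed (-0.79 ± 0.41, -0.46 ± 0.41 and 0.73 ± 0.41, with adjusted p = 0.226, 0.677 and 0.222, limma). With the fibroblast mean as a covariate they were -0.58 (adjusted p = 0.0225) at day 4, -0.73 (adjusted p = 0.0187) at day 7 and 0.24 (adjusted p = 0.225) at day 20. Without the 4 arrays that stood apart the day 20 difference of 0.73 passed (adjusted p = 0.0017). None of those arrays is of day 20, so the readings compared stayed the same and only the rest of the fit changed. Sham TEC at day 20 (8.13 ± 0.07) differed from unoperated middle-aged TEC (9.89 ± 0.47, SD, n = 3 each) by -1.77 ± 0.41 (adjusted p = 0.00176), and by -1.03 with the covariate (adjusted p = 4.67e-05). The part of fibroblast RNA in these levels was not tested further.

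**Figure D2:**
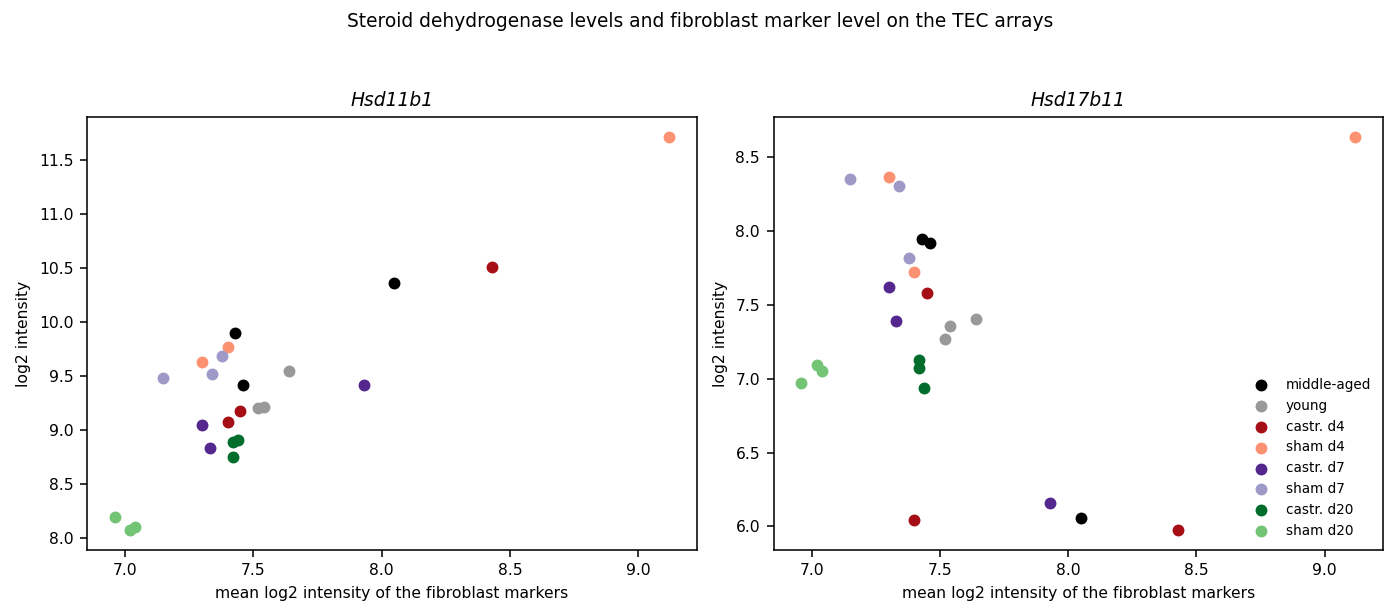
Log2 intensity of Hsd11b1 (left) and Hsd17b11 (right) on the 24 TEC arrays against the mean log2 intensity of 8 fibroblast markers on the same array, coloured by group; the axes do not start at 0. The array with the highest fibroblast mean (9.12) has the highest Hsd11b1 (11.71), whereas the arrays with the lowest Hsd17b11 lie at fibroblast means of 7.40 to 8.43.

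Hsd17b11 fell in castrated TEC at day 4, with a wide spread. Castrated TEC read 7.58, 6.05 and 5.98, against 8.37, 7.72 and 8.64 in sham TEC. All castrated arrays were lower, 2 of them by far, and the means were 6.53 ± 0.91 and 8.24 ± 0.47 (SD, n = 3 each). The difference was -1.71 ± 0.46 (3.27-fold lower, adjusted p = 0.0441, limma). The call was kept in 1 of 6 fits that left out an array (without castrated array 1) and lost without any other (highest adjusted p 0.204). Without the 4 arrays that stood apart, which include castrated arrays 2 and 3, the difference was -0.47 (adjusted p = 0.78). The call was also lost with unoperated middle-aged TEC as the control. Sham TEC at day 4 (8.24) and day 7 (8.16) had the highest group means in TEC. Middle-aged TEC averaged 7.31 ± 1.08 (SD, n = 3) and young TEC 7.34. The sham groups differed from middle-aged TEC by 0.93 and 0.85, and neither difference passed.

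At day 7 castrated TEC read 7.39, 7.62 and 6.16 for Hsd17b11, against 7.82, 8.35 and 8.30 in sham TEC. Again all castrated arrays were lower, and the difference of -1.10 ± 0.46 did not pass (adjusted p = 0.317), although it did without the 4 arrays (adjusted p = 0.0401). None of those arrays is of day 7, so the readings compared stayed the same and only the rest of the fit changed. At day 20 the group means nearly coincided, at 7.05 ± 0.10 in castrated and 7.04 ± 0.07 in sham TEC (SD, n = 3 each), with a difference of 0.01 and an interval of -0.95 to 0.96. Averaged over the 3 days Hsd17b11 fell by 0.93 ± 0.27 (adjusted p = 0.0301), a call kept in 8 of 18 fits that left out an array (-0.52 without the 4 arrays that stood apart, adjusted p = 0.0921). With unoperated middle-aged TEC as the control this average was -0.43 (adjusted p = 0.429, limma). A second probe, dim at 5.34, differed by -0.76 and -0.43 between castrated and sham TEC at days 4 and 7.

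In nonTEC Hsd17b11 rose with age. Middle-aged nonTEC read 10.42, 10.35 and 10.46, against 9.33, 10.23 and 9.86 in young nonTEC. The middle-aged arrays were all higher, by 0.60 ± 0.17 (1.52-fold, adjusted p = 0.0121, limma), and the 2 other probes were higher by 0.69 and 0.73. Without young array 1, the lowest, the difference was 0.37 (adjusted p = 0.0772). The call was also lost with the thymocyte mean, which was lower in middle-aged nonTEC, as a covariate (0.63, adjusted p = 0.0929) and in fits of all 41 arrays (adjusted p = 0.256) or of only the 6 compared (adjusted p = 0.0884). Castrated nonTEC at day 7 read 10.05, 10.14 and 9.88, against 10.37 and 10.61 in sham nonTEC, all lower, with a difference of -0.47 ± 0.19 that did not pass (adjusted p = 0.372).

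Few of these genes differed between sham-operated and unoperated middle-aged mice at the early days. In TEC, Tsc22d3 was the only 1 of 6 at day 4, where 2.37% of all genes passed. At day 7, 0 of 6 passed, against 0.0244% of all genes. Fkbp5 alone had an unadjusted limma p under 0.05 at day 7, as had 16.9% of all genes. In nonTEC 0 of 7 passed at day 4 and 0 of 7 at day 7, where 0.0386% and 0% of all genes passed. At day 4, 2 of the 7 (Fkbp5 and Hsd11b1) had an unadjusted limma p under 0.05, as had 17.1% of all genes. At day 7 it was 0 of 7, against 14%. These sham comparisons share the unoperated middle-aged arrays with each other and with the ageing comparison.

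Several other genes known to be induced by glucocorticoids were, like Fkbp5, higher in middle-aged TEC and lower in castrated TEC at day 20. Of 22 further such genes tested in TEC, 8 rose and 1 fell with age, with a median difference of 0.37 against 0.01 over all genes. At day 20 after castration 2 rose and 9 fell, with a median of -0.43 against -0.04. Among all genes 11.9% rose with age and 9.4% fell at day 20. These comparisons share no arrays. Of the 8 that rose with age 7 (87.5%) were among the 9 that fell at day 20 (77.8%): Bcl6, Errfi1, Lcn2, Pdk4, Per1, Slc2a3 and Zfp36. Of all genes that rose with age 45.7% fell at day 20, which is 58.1% of those that fell. Without the 4 arrays that stood apart the counts were 9 higher and 3 lower of 23 tested with age, and 2 higher and 10 lower at day 20. At day 4 and at day 7, 0 of the 22 passed in limma, with 8 (day 4) and 4 (day 7) at an unadjusted p under 0.05, as were 25.8% and 13.2% of all genes. In the fit of only the 6 arrays compared, 1 of the 22 rose with age. With the fibroblast mean as a covariate the counts were again 8 higher and 1 lower with age, and 2 higher and 9 lower at day 20. The shares of all genes are not given for the fits without the 4 arrays, of only 6 arrays or with this covariate. Their counts therefore show how the calls depend on the fit, and nothing particular to the list. The 6 of 13 thymocyte markers measured in TEC averaged 6.89 to 7.35 in middle-aged and 7.14 to 7.22 in young TEC, and were higher in castrated than in sham TEC at day 20. Leukocyte and myeloid markers, with the ranges given for Fkbp5, were lower in middle-aged than in young TEC and higher in castrated than in sham TEC at day 20, opposite to the list in both. The part of these markers in the list was not tested.

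Pdk4, the kinase that turns off pyruvate dehydrogenase in fasting, read 6.25, 6.57 and 6.26 in castrated TEC at day 20, against 8.52, 8.27 and 8.85 in sham TEC. All castrated arrays were lower, and Pdk4 fell by 2.19 ± 0.30 (4.56-fold lower, adjusted p = 5.89e-05, limma). Lcn2, the iron-scavenging acute-phase protein lipocalin 2, fell by 2.05 ± 0.27 (adjusted p = 4.07e-05), Errfi1, a feedback inhibitor of the EGF receptor, by 1.56 ± 0.20 (adjusted p = 3.15e-05) and Zfp36, which speeds the decay of cytokine messages, by 1.17 ± 0.15 (adjusted p = 2.83e-05). With age Zfp36 was higher by 1.31 ± 0.15 and Errfi1 by 1.17 ± 0.20. Errfi1, Zfp36, Per1 and Dusp1 are also known as immediate early genes that many stimuli induce, so that they are not specific to steroids.

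**Figure D3:**
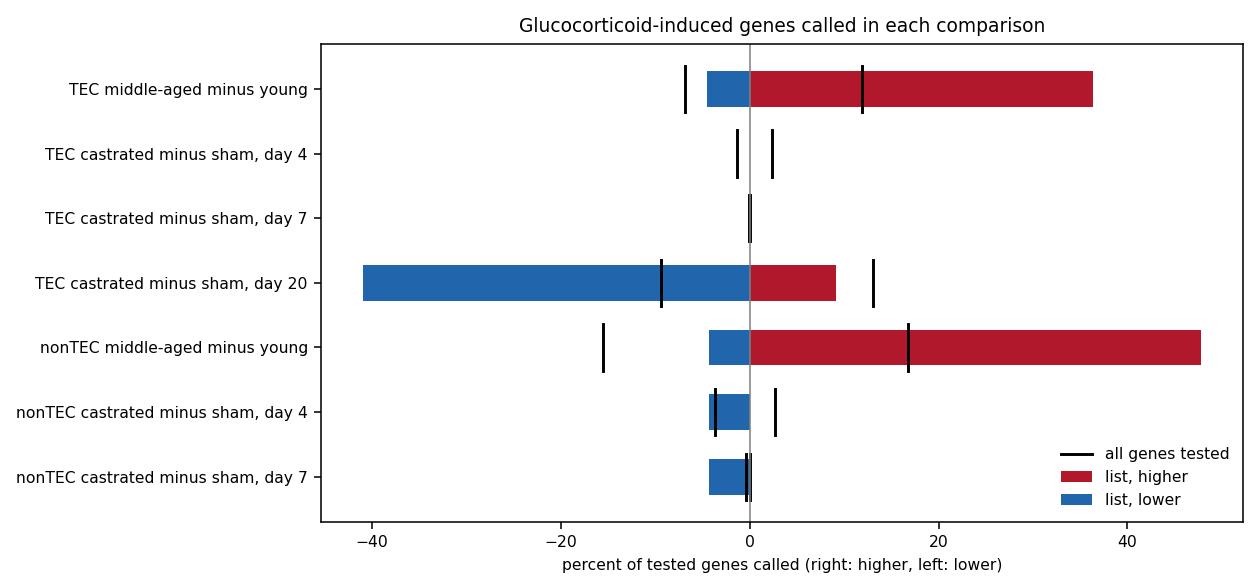
Percent of the 22 (TEC) or 23 (nonTEC) further glucocorticoid-induced genes tested that rose (red, to the right) or fell (blue, to the left) in each comparison, with black ticks for the percent of all genes tested. In TEC 8 of 22 rose with age and 9 of 22 fell at day 20 after castration.

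In nonTEC 11 of 23 such genes rose and 1 fell with age, with a median of 0.27 against 0.02 over all genes, of which 16.8% rose. Over both days after castration 0 rose and 6 fell (Bcl6, Cdkn1c, Cebpb, Errfi1, Il1r2 and Mertk), with a median of -0.27 against -0.01, where 3.81% of all genes fell. Il1r2, the decoy receptor for interleukin 1, read 7.97, 8.10 and 8.69 in castrated nonTEC at day 4, against 9.15, 9.42 and 9.25 in sham nonTEC, and 7.43, 8.02 and 7.75 at day 7, against 9.15 and 8.95. It was lower on every castrated array, and fell at day 4 (1.02 ± 0.24, adjusted p = 0.02, limma) and at day 7 (1.32 ± 0.27, adjusted p = 0.03). With the thymocyte mean as a covariate 2 of the 23 rose and 1 fell with age, with a median of 0.19, and 0 passed over both days after castration, with a median of -0.07 (limma). The shares of all genes passing with this covariate are not given here. The counts with it therefore show how the calls depend on the fit, and nothing particular to the list. Of 11 genes known to be repressed by glucocorticoids tested in nonTEC, 2 rose and 1 fell over both days after castration (2.73% and 3.81% of all genes), with a median of -0.05 against -0.01, and 1 rose and 3 fell with age (16.8% and 15.5% of all genes). In TEC 0 of 10 rose and 3 fell with age, where 6.88% of all genes fell. In nonTEC the genes of this list moved in both directions. Mmp3, a matrix protease, fell by 0.48 ± 0.11 over both days in castrated nonTEC (adjusted p = 0.0126) and was 0.38 ± 0.14 higher with age there (adjusted p = 0.0488). Mmp9, another matrix protease, rose by 0.66 ± 0.12 over both days in castrated nonTEC (adjusted p = 0.00303) and by 0.60 ± 0.09 over the days in castrated TEC (adjusted p = 0.00103), and differed with age by -0.58 in TEC (adjusted p = 0.0184) and by -0.66 in nonTEC (adjusted p = 0.00441).

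Of 12 genes known to be induced by androgens tested in TEC, 2 fell at day 4 (Homer2 and Elovl5), where 1.29% of all genes fell. At day 7, 0 passed in limma (1 at an unadjusted p under 0.05, against 13.2% of all genes), and at day 20 3 rose (Homer2, Tmprss2 and Spink1), where 13.1% of all genes rose. The 3 days had medians of -0.08, 0.03 and 0.18, against 0.04, 0.01 and -0.04 over all genes. In nonTEC 2 of 11 fell at day 4 (Slc45a3 and Abcc4), where 3.65% of all genes fell, and 0 passed at day 7 in limma (3 at an unadjusted p under 0.05, against 10.3% of all genes). The list is known mainly from prostate. Among 10 other steroid enzyme genes tested in TEC, 3 rose and 1 fell with age, against 11.9% and 6.88% of all genes. At day 20, 1 rose and 1 fell, against 13.1% and 9.4% of all genes. H6pd, which supplies Hsd11b1 with its cofactor NADPH, read 8.53, 9.00 and 9.34 in middle-aged TEC, against 7.85, 7.49 and 8.05 in young TEC, and 7.72, 7.62 and 7.97 in castrated TEC at day 20, against 8.81, 8.90 and 8.82 in sham TEC. It rose with age by 1.16 ± 0.25 (adjusted p = 0.00469) and fell at day 20 by 1.07 ± 0.25 (adjusted p = 0.00477), with no overlap in either. Hsd17b7, an enzyme of cholesterol and oestradiol synthesis, rose with age by 0.98 ± 0.16 in TEC and by 0.82 ± 0.19 in nonTEC. Of 8 receptor chaperone genes tested in TEC, 1 fell with age (6.88% of all genes) and 1 rose at day 4 after castration (2.33% of all genes). Ppid, which like Fkbp5 binds Hsp90 next to the receptor, fell with age (-1.08 ± 0.27, adjusted p = 0.01). Ptges3, the co-chaperone p23, rose in castrated TEC at day 4 (1.47 ± 0.39, adjusted p = 0.0427).

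The genes whose 14 group means, centred within each fraction, followed each gene most closely give its pattern in other terms. Groups are not independent points, since those of a fraction share their normalization and TEC has the day 20 arrays, so these are descriptions. For Fkbp5 they were Cyp2d22 (r = 0.921) and Plcd3 (r = 0.914), for Klf9 Slc6a6 (r = 0.884) and Agap1 (r = 0.876), and for Sgk1 Map2k3 (r = 0.953) and Ccn2 (r = 0.939). Hsd17b11 went with Selenop (r = 0.944) and Isoc2a (r = 0.930), and Hsd11b1 with Mfap5 (r = 0.932) and Rarres2 (r = 0.912). Tsc22d3 went with Khnyn (r = 0.836) and Wdr60 (r = 0.829), and Esr1 with Arih1 (r = 0.867) and Zfp654 (r = 0.853). For Zbtb16 they were Pcca (r = 0.855) and Vasn (r = 0.830). Each is among the closest 2 of 6665 or 6666 genes searched. Over the TEC groups alone r ran from 0.821 to 0.982. Over the nonTEC groups alone it ran from 0.319 (Rarres2 with Hsd11b1) to 0.973 (Isoc2a with Hsd17b11 and Pcca with Zbtb16). Among the steroid genes themselves, Fkbp5 and Klf9 were nearly unrelated over the groups (r = 0.104), and Klf9 ran against Hsd11b1 (r = -0.605).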

How the data were processed

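Thymic stroma was sorted, RNA purified with Qiagen kits and labelled with the Ambion TotalPrep kit, per the labels' protocols. The deposited values are normalized log2 intensities, as the authors made them: their scale is not stated and was taken as base 2 from a maximum of 14.89. TEC and nonTEC arrays have different medians (6.68 and 6.81 to 6.82) and appear to have been normalized separately. The submitters' processing notes name limma; background correction is not given in the sources used here. Of 24671 probes, 20825 with 1 listed gene were used, and a gene is its probe of highest mean. Group means were fitted with limma 3.58.1 (R 4.3.3, eBayes with trend) on 24 TEC, 17 nonTEC or all 41 arrays (8195, 7771 and 8487 genes tested), with Benjamini-Hochberg adjustment over all of them and 19 comparisons. The fit was tested on simulated data. Genes and lists were chosen with earlier results of these data known. The text names the 9 genes, Nr3c2 and Hsd11b2, the 2 genes most like each, and up to 4 passing genes a list, of which part is printed; another gene of this rule is not reported here. Promoters came from RefSeq (GRCm38.p6). Alternatives covered filters, normalization, probes, weights, trend, arrays fitted, controls, a replicate block and leaving out arrays. Figures used Python 3.11.15.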

Additional observations from a re-analysis of the deposited data

Results flagged for a closer look

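Fkbp5 was singled out because its castrated minus sham difference in TEC was unequal over days 4, 7 and 20 by the F test (adjusted p = 0.00387, limma), with differences of 0.08, -0.13 and -0.89. A further 3 genes were singled out because their castration difference over days 4 and 7 was unequal between TEC and nonTEC by the test of that difference. It was 1.07 higher in TEC for Klf9, 0.76 higher for Esr1, whose TEC probes are dim, and 0.55 higher for Tsc22d3, whose probes disagree. No group has over 3 arrays, so no test for an outlying array within a group was run.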

How the results depend on the processing

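Counts of these genes passing are given here as their alternative value. The shares of all genes passing in the same fits are not given beside them. The counts therefore show how calls depend on the processing, and nothing particular to these genes. With array weights 2 passed for ageing in TEC (Fkbp5 and Klf9), 2 at day 4, 3 at day 7 and 4 at day 20 after castration in TEC, 6 between days, 3 for sham at day 7, 4 for sham at day 20, 3 at day 4 and 2 over both days in nonTEC, and 5 for the difference of castration between fractions. In fits of only the arrays compared 0 passed for ageing in TEC and 0 in nonTEC, 0 at day 4, 4 at day 20, 3 between days and 0 for sham at day 4 in TEC. Against the unoperated middle-aged arrays 0 passed at day 4, 1 at day 7 (Fkbp5), 5 at day 20 and 1 on average in TEC, and 2 at day 4 and 2 over both days in nonTEC. With sham arrays pooled over days 2 passed at day 20. With no filter 2 passed at day 4 and 2 between days in TEC, and with a stricter filter (7.84) 0 at day 4. Quantile normalization gave 2 and median centring 0 at day 4. The mean of all probes gave 0 for sham at day 4, where Tsc22d3 turned to 0.13, and turned its castration difference between fractions to -0.28. Quantile normalization turned its TEC minus nonTEC difference to 0.13. The fit of all arrays gave 3 at day 4 and 4 between days in TEC, and 1 for ageing and 0 at day 7 in nonTEC.

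The following were chosen after the data were seen. Without the 4 arrays that stood apart 0 passed at day 4, 1 at day 7, 3 at day 20, 1 on average and 2 between days in TEC, 0 and 4 for sham at days 4 and 20, and 1 (Klf9) for the castration difference between fractions. With the fibroblast mean as a covariate in TEC 2 passed for ageing, 3 at day 4, 1 at day 7 and 2 between days, and with the thymocyte mean in nonTEC 1 passed for ageing (Tsc22d3) and 0 over both days after castration. The causes of these changes were not tested.

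Leaving out each array in turn gave counts of 0 to 2 at day 4, 1 to 2 on average and 1 to 4 between days in TEC, 0 to 1 and 2 to 3 for sham at days 4 and 20, 1 to 3 for ageing and 0 to 1 for castration at day 7 in nonTEC, 5 to 7 for TEC minus nonTEC, 0 to 1 for the ageing difference between fractions and 1 to 4 for that of castration. Other counts did not move. With the replicate block, 2 passed at day 4 (Hsd17b11 and Tsc22d3) and 2 between days (Fkbp5 and Klf9) in TEC, and it moved no other count by over 1.5 times. The arrays of a number share only that number: deviations of same-numbered arrays correlated from -0.413 to 0.416, and in no comparison did every pair exceed 0.1. Single genes that passed in the main fits gave 325 values under other alternatives, of which 289 kept the call, 33 lost it and 3 reversed. Genes that did not pass in the main fits are left out of this tally, although some passed under an alternative.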
